A study of Rattus norvegicus with 6 samples.

Results

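Connexins are the proteins of gap junctions, channels that join the cytoplasm of neighbouring cells. The rule named 7 connexin genes of the arterial wall and of the glia and meninges around it (Gja1, Gja4, Gja5, Gjb1, Gjb2, Gjb6 and Gjc1) by their symbols. Of these 7, 6 had a probe set with that symbol on the array, with 9 probe sets in all, out of 10411 genes measured; Gjc1 was not analysed here. Each gene is represented by its brightest probe set, the one with the highest mean over the 6 arrays, and the other probe sets are given beside it.

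The arrays held RNA of intact resistance arteries of the brain of Dahl rats, which are known for a blood pressure that responds to dietary salt. The vessels were the primary branches of the basilar artery and circle of Willis. High salt rats ate chow with 8% NaCl from 7 weeks of age, for 11 weeks by a field of each sample and for 12 weeks by the protocol. Low salt rats ate chow with 0.4% NaCl from 7 weeks of age for 12 weeks. There were 3 arrays per diet, each of RNA pooled from 3 rats, so a value stands for a pool and not for a rat, and the labels do not say which arteries were frozen and which were kept in preservative.

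Connexin subunits assemble in a ring to form a hemichannel, and a hemichannel of one cell docks with one of the next to make a channel for ions and small molecules. In arteries these channels carry hyperpolarisation along the endothelium and from endothelium to smooth muscle, so that dilation spreads along the vessel. Endothelial cells of arteries are known for Cx37 (Gja4) and Cx40 (Gja5), and smooth muscle for Cx43 (Gja1), Cx45 (Gjc1) and, in some vessels, Cx37. Astrocytes couple through Cx43 and Cx30 (Gjb6), the meninges through Cx43, Cx26 (Gjb2) and Cx30, and oligodendrocytes and Schwann cells carry Cx32 (Gjb1).

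The samples held RNA of markers of the arterial wall and of other cell types. All 8 smooth muscle markers lay above the median gene, yet astrocyte and meningeal markers were measured too and varied among arrays. Of these, 4 of 10 astrocyte and 1 of 11 meningeal markers lay below the median gene. Whether their RNA came from tissue attached to the vessels was not tested. On the log2 scale the mean of 10 astrocyte markers was 9.84, 9.35 and 9.48 on high salt arrays 1 to 3, against 8.44, 9.72 and 7.74 on low salt arrays 1 to 3. The mean of 11 markers of meningeal fibroblasts and arachnoid was 11.30, 11.78 and 11.52 on the high salt arrays, against 10.87, 11.58 and 10.73 on the low salt arrays. Low salt array 2 therefore lay with the high salt arrays in both sets, and low salt arrays 1 and 3 lay below them. On the first principal component (63.1% of the variance) the high salt arrays lay from 7.85 to 27.9, and low salt arrays 1 to 3 at -65.9, 28.1 and -15.0.

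Over all 15866 probe sets, limma with Benjamini-Hochberg adjustment called 0 (0%) at an adjusted p below 0.05, and the lowest adjusted p was 0.540. An unadjusted p below 0.05 was reached by 846 probe sets (5.33%), of which 735 (4.63%) were higher and 111 (0.7%) lower in high salt. Of the 9 connexin probe sets 0 were called after adjustment and 1 had an unadjusted p below 0.05, that of the bright Gja5 probe set, at 0.0323. Each difference is the high salt mean less the low salt mean, in log2 units, with limma's standard error (SE), and all of those given here fell short of the threshold. Of all genes 60.0% were higher in high salt. The median gene was 0.07 higher, and -0.06 after the arrays were centred on their medians, a shift of the whole table that differences of this size cannot be told apart from.

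The arterial connexins Gja4 and Gja5 had differences of opposite sign. Gja5, which encodes Cx40, a channel of arterial endothelium and of the conduction tissue of the heart, had a higher mean on high salt, and Gja4, which encodes Cx37, its partner in arterial endothelium, had a lower one. Neither difference passed the threshold, and for each gene the ranges of the diets overlapped by 1 array on each side.

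Gja5 stood at 11.64, 10.59 and 11.47 on high salt arrays 1 to 3, against 9.98, 10.37 and 10.65 on low salt arrays 1 to 3. High salt array 2 was the exception, just below low salt array 3, while the other high salt arrays lay above every low salt array. The mean was 11.23 ± 0.56 (SD, n = 3) on high salt and 10.33 ± 0.34 on low salt, a difference of 0.90 ± 0.32 (SE) or 1.87-fold, with a 95% interval from 0.11 to 1.70 and an adjusted p of 0.803 (limma, Benjamini-Hochberg). With high salt array 2 left out the difference was 1.22, and with any other array left out it ran from 0.70 to 1.06. Median centring gave 0.77 and quantile normalization 0.68, with an unadjusted p of 0.0512 in limma after quantile normalization, against 0.0323 without it.

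Gja5 had a second probe set, annotated to the same transcript accession, that was dim on every array. It stood at 6.56, 6.65 and 6.56 on the high salt arrays, against 6.56, 6.33 and 6.51 on the low salt arrays. These values sit near the lower quartile of the arrays (6.53 to 6.65), and they differed by 0.12 ± 0.10 (SE; limma, Benjamini-Hochberg adjusted p = 0.803). Its diets did not overlap, by a margin between 6.5627 on high salt and 6.5617 on low salt, as was the case for 7.23% of all probe sets in that direction, and after median centring its difference was -0.01.

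Gja4 stood at 11.24, 10.92 and 11.37 on high salt arrays 1 to 3, against 11.63, 11.33 and 11.82 on low salt arrays 1 to 3. High salt array 3 and low salt array 2 crossed by a small margin, and every other high salt value lay below every low salt value. The mean was 11.18 ± 0.23 (SD, n = 3) on high salt and 11.59 ± 0.25 on low salt, a difference of -0.42 ± 0.18 (SE) or 0.749-fold, with a 95% interval from -0.86 to 0.03, an unadjusted p of 0.0617 and an adjusted p of 0.803 (limma, Benjamini-Hochberg). Median centring gave -0.55 and quantile normalization -0.61, with unadjusted p of 0.0236 and 0.0326 (limma). Which of Gja4 and Gja5 had an unadjusted p below 0.05 thus depended on the scaling. After adjustment the p of Gja4 was 0.586 and 0.781 in these settings (limma, Benjamini-Hochberg).

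**Figure D1:**
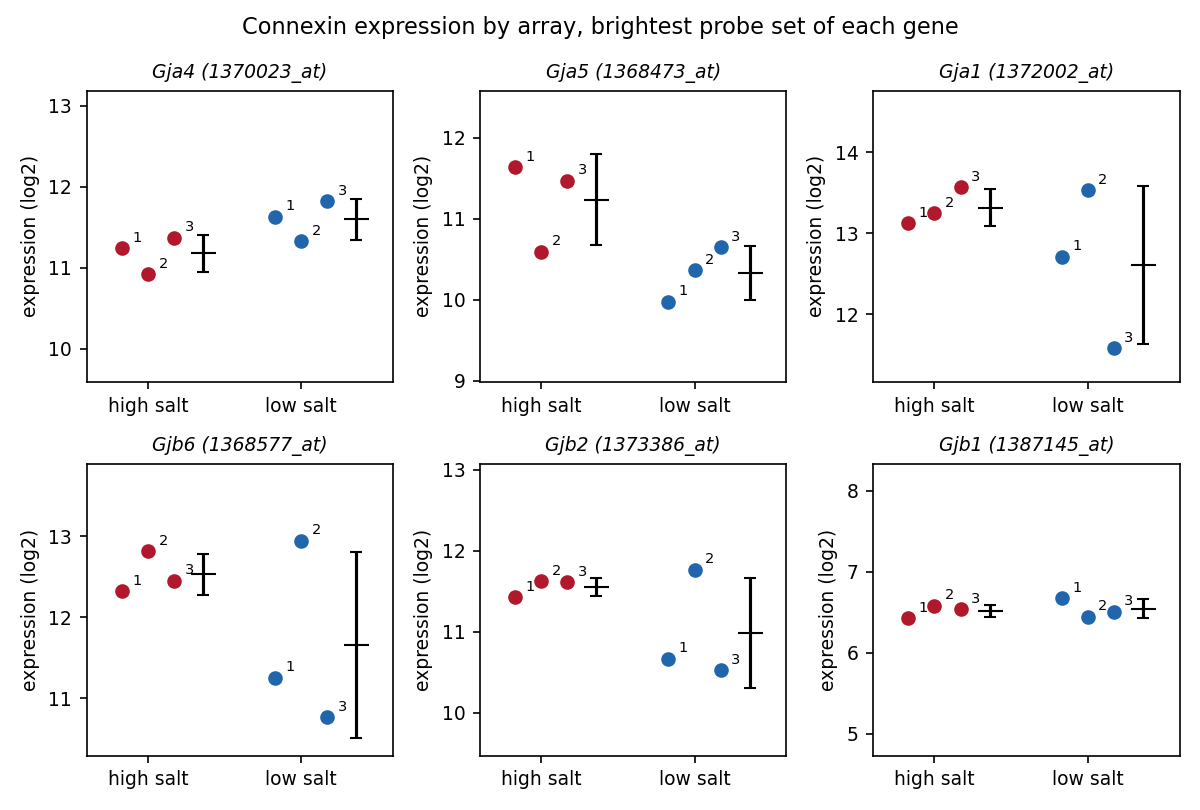
Expression on the log2 scale (vertical axes, each spanning the same number of log2 units) of the brightest probe set of 6 connexins. Points are arrays, each a pool of 3 rats, numbered by replicate, in high salt (left, red) and low salt (right, blue), with bars for mean ± SD (n = 3). Gja5 is high on high salt arrays 1 and 3, while Gja1, Gjb6 and Gjb2 are low only on low salt arrays 1 and 3.

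The 2 arterial connexins can also be set against each other within an array. Taking each gene's deviation from its own mean over the 6 arrays, Gja5 minus Gja4 was 1.00, 0.27 and 0.70 on high salt arrays 1 to 3, against -1.05, -0.36 and -0.57 on low salt arrays 1 to 3. Centring on the 6 arrays gives the diets' means opposite signs by construction, and the difference of 1.32 describes the pair and was not tested. Beside it, red blood cell markers were higher in high salt in 3 of 3 genes, as Gja5 was, with a mean deviation of 0.37 on high salt and -0.37 on low salt. Smooth muscle markers were lower in 8 of 8, as Gja4 was, with -0.16 on high salt and 0.16 on low salt. The part of either in this difference was not tested. The mean of the endothelial markers was 10.12, 9.95 and 10.14 on the high salt arrays, against 9.90, 9.58 and 10.02 on the low salt arrays, and 6 of the 7 genes were higher in high salt with a median difference of 0.13. Among them Cldn5, the claudin of the brain's vessels, differed by -0.10 ± 0.20 (SE), Vwf by 0.21 ± 0.41 and the VEGF receptor Kdr by 1.14 ± 0.68. In bulk arteries a change in the number of cells of a type and a change in RNA per cell cannot be told apart.

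The promoters of these 2 genes are shown because the pair had differences of opposite sign. RefSeq (GRCr8) gives for each the 250 bases before and 50 bases after a transcript start, and all 6 measured members matched that table. Capitals mark matches on either strand to 4 short motifs. These were GGGCGG (the GC box of Sp1-type factors), CCACCC (the CACCC box of Krüppel-like factors), TATAAA (the TATA box) and AGGTGTGA (a site of T-box factors). The Gja5 window is chr2:187290977-187291276 on the plus strand and the Gja4 window is chr5:144920275-144920574 on the minus strand, both written 5′ to 3′ along the gene.
Gja5: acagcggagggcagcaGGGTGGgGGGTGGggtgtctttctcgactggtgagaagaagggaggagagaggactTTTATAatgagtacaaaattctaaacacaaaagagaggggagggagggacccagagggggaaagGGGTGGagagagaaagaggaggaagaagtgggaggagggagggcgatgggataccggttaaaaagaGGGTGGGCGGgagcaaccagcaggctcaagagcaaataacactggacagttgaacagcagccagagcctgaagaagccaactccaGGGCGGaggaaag
Gja4: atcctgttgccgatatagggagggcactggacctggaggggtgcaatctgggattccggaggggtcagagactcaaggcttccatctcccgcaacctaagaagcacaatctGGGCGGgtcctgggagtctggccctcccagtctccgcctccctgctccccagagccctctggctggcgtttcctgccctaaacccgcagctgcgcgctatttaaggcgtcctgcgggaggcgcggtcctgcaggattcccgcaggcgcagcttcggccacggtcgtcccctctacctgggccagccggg
The Gja5 window held 4 CACCC boxes, 2 GC boxes and 1 match to the TATA box motif, and 1 of the CACCC boxes overlaps a GC box. The TATA match is on the opposite strand (TTTATA) and far from the transcript start. The Gja4 window held 1 GC box and no match to the other 3 motifs. Of 33469 RefSeq windows of this length, 33.1% hold the GC box, 29.4% the CACCC box, 14.2% the TATA box and 1.1% the T-box site. The GC content was 55.3% for Gja5 and 65.3% for Gja4, with 6 and 19 CpG sites, beside a median of 51.7% and 7 sites over all windows. A match is a string of letters in this window and not a measured site.

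Gja4 and Gja5 also differed in which genes their profiles over the 6 arrays resembled. Likeness was measured as the root mean square (RMS) difference between 2 profiles, each centred on its own mean, over the 6 arrays and among 5201 genes above the median level. The spread of Gja4 about its own mean was 0.29, the distance at which a flat profile would lie. The 3 genes nearest to Gja4 were Mapre2 (a protein of growing microtubule ends), at an RMS difference of 0.05, Synpo2 (an actin-binding protein of muscle), at 0.06, and Pln (phospholamban, the inhibitor of the sarcoplasmic calcium pump), at 0.08. Pln stood at 12.49, 12.28 and 12.79 on the high salt arrays, against 12.82, 12.56 and 13.12 on the low salt arrays, the order of arrays seen for Gja4. Among the marker sets the mean profiles of pericytes (0.18) and smooth muscle (0.23) were nearest to Gja4, followed by that of 2 markers of arterial endothelium (0.26), where smooth muscle and arterial endothelium were hardly nearer than a flat profile. Of the pericyte markers 4 of 6, and of the arterial markers 2 of 2, lay below the median gene.

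The 3 genes nearest to Gja5 were F2r (the thrombin receptor PAR1), at an RMS difference of 0.13, Bend6, at 0.16, and Uaca, at 0.17. F2r stood at 11.02, 10.37 and 10.85 on the high salt arrays, against 9.46, 9.87 and 10.13 on the low salt arrays, and its diets did not overlap, as for 7.23% of probe sets in that direction. It was chosen for its likeness to Gja5, so its difference of 0.92 ± 0.24 (SE) describes the profile and adds no independent result. The marker set nearest to Gja5 was that of red blood cells (0.23), whose mean over 3 genes was 10.99, 10.46 and 11.18 on the high salt arrays, against 10.03, 10.22 and 10.17 on the low salt arrays. Hbb, beta globin, differed by 0.94 ± 0.24 (SE), and the part of blood cells in the Gja5 values was not tested. Between themselves Gja4 and Gja5 lay 0.72 apart, and 83.7% of the 5201 genes were nearer to Gja4 than Gja5 was.

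The bright glial and meningeal connexins Gja1, Gjb6 and Gjb2 shared 1 pattern over the arrays. All 3 were high on each high salt array and on low salt array 2, and low on low salt arrays 1 and 3, so that the low salt group was split and the diets overlapped. Their differences were 0.71 ± 0.49, 0.87 ± 0.57 and 0.57 ± 0.34 (SE), each under 2 SE, and none was called (limma, Benjamini-Hochberg adjusted p = 0.803 for each).

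Gja1, which encodes Cx43, the most widely expressed connexin of smooth muscle, astrocytes and meninges, stood at 13.12, 13.25 and 13.57 on high salt arrays 1 to 3, against 12.71, 13.53 and 11.58 on low salt arrays 1 to 3. Low salt array 2 lay inside the high salt range, and low salt array 3 was lowest by more than 1 log2 unit. The means were 13.31 ± 0.23 on high salt and 12.60 ± 0.98 on low salt (SD, n = 3 each), with a 95% interval of the difference from -0.49 to 1.91. Without low salt array 3 the difference was 0.19, without low salt array 2 it was 1.17, and with array weights it was 1.21.

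The other probe sets of Gja1 were dim, and their differences did not follow that of the bright one. One stood at 5.89, 6.02 and 6.03 on the high salt arrays, against 6.10, 6.16 and 6.11 on the low salt arrays, a difference of -0.14 ± 0.09 (SE) with no overlap between diets, as for 3.93% of all probe sets in that direction. The other stood at 6.40, 6.68 and 7.28 on the high salt arrays, against 6.83, 7.05 and 6.59 on the low salt arrays, a difference of -0.04 ± 0.25. Like the bright probe set, this one was highest on high salt array 3, followed by low salt array 2. Both were annotated to a different transcript accession from the bright probe set. The first of the dim probe sets lay below the lower quartile of every array. The second lay on both sides of it, reaching 7.28 on high salt array 3. Averaged over its 3 probe sets Gja1 differed by 0.18, and averaged over its 2 probe sets Gja5 differed by 0.51.

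Gjb6, which encodes Cx30, the second gap junction protein of astrocytes, stood at 12.32, 12.81 and 12.45 on high salt arrays 1 to 3, against 11.25, 12.95 and 10.76 on low salt arrays 1 to 3. The highest value of all 6 arrays was thus on low salt and so were the lowest values. The means were 12.53 ± 0.25 on high salt and 11.65 ± 1.15 on low salt (SD, n = 3 each), with a 95% interval of the difference from -0.52 to 2.27. Without low salt array 2 the difference was 1.52 (limma, Benjamini-Hochberg adjusted p = 0.110), and without low salt array 3 it was 0.43 (0.897).

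Gjb2, which encodes Cx26, a connexin of the meninges, stood at 11.43, 11.63 and 11.61 on high salt arrays 1 to 3, against 10.67, 11.77 and 10.53 on low salt arrays 1 to 3. The high salt arrays lay close together, and low salt array 2 lay above them. The means were 11.56 ± 0.11 on high salt and 10.99 ± 0.68 on low salt (SD, n = 3 each), with a 95% interval of the difference from -0.26 to 1.40. The difference was 0.96 without low salt array 2 (limma, Benjamini-Hochberg adjusted p = 0.0953), 0.34 without low salt array 3 and 0.34 after quantile normalization.

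**Figure D2:**
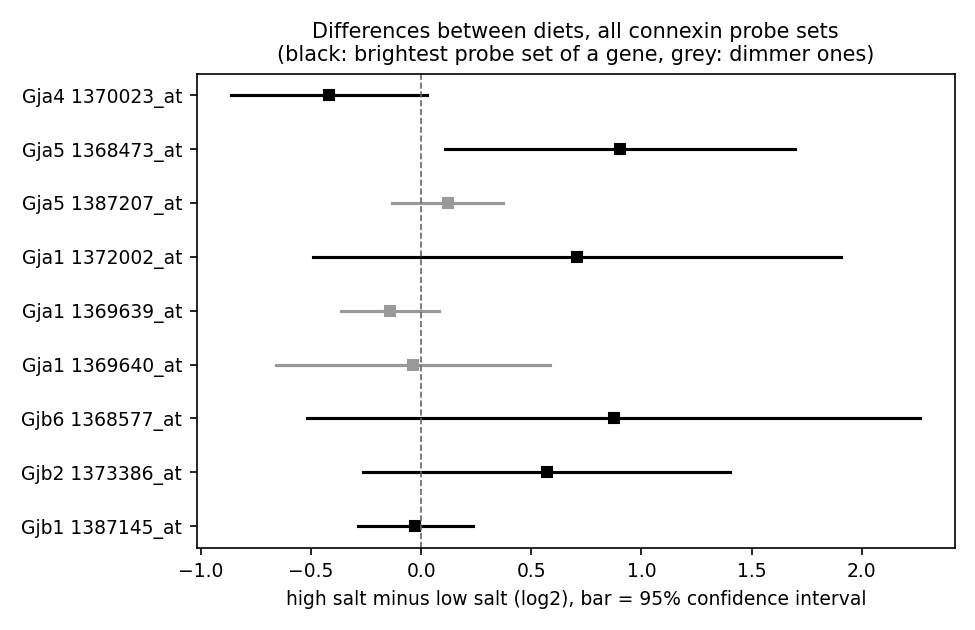
Difference of high salt from low salt in log2 units (horizontal axis) for all 9 connexin probe sets, with 95% confidence intervals from limma as bars. Black marks the brightest probe set of a gene and grey the dimmer ones. On the values as deposited, the interval of the bright Gja5 probe set (0.11 to 1.70) alone leaves out 0 before adjustment.

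Gjb2 and Gjb6 are neighbours on chromosome 15 of the RefSeq assembly GRCr8, with 0 annotated genes starting between them, and their profiles lay 0.33 apart by RMS difference. Of the 5201 genes above the median level, 58 (1.12%) were nearer to Gjb6 than Gjb2 was. Gja1, on chromosome 20, was as near, at 0.34 from Gjb6 and 0.32 from Gjb2, and 20 genes (0.385%) were nearer to Gja1 than Gjb2 was. The points are 6 arrays of shared libraries, so these likenesses are descriptions.

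The promoter windows of this neighbouring pair are shown because the genes are neighbours with like profiles. The Gjb6 window, the first of 2 in the table, is chr15:35410089-35410388 and the Gjb2 window is chr15:35381904-35382203, both on the minus strand of GRCr8 and from RefSeq, with the same motifs in capitals.
Gjb6: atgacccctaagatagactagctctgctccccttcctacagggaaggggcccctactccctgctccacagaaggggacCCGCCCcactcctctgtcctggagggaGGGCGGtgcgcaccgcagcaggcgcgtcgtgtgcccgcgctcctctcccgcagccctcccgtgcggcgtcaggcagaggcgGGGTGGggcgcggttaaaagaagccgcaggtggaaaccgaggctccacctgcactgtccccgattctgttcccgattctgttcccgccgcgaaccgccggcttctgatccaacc
Gjb2: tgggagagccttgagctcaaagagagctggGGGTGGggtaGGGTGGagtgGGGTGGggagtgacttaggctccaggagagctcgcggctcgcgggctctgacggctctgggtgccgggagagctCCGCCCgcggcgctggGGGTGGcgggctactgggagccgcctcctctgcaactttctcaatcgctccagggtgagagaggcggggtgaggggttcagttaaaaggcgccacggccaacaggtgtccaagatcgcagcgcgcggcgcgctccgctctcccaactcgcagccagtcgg
The Gjb6 window held 2 GC boxes and 1 CACCC box, and the Gjb2 window 1 GC box and 4 CACCC boxes. Neither held a TATA box or a T-box site. The GC content was 67.0% for Gjb6 and 68.0% for Gjb2, and each window held 25 CpG sites, above the upper quartile of all windows (60.3% and 19 sites). The second Gjb6 window in the table, with a GC content of 52.3% and 5 CpG sites, was near or below the medians of all windows, and it held 1 GC box and no CACCC box. The Gja1 window had a GC content of 50.3%, 10 CpG sites and 0 matches to the 4 motifs.

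The genes nearest to these 3 connexins included 1 of the meningeal markers, Aldh1a2. Those nearest to Gja1 were Gstt3 (RMS difference 0.15), the kinase Pak1 (0.21) and Aldh1a2 (0.22), the enzyme that makes retinoic acid in the meninges. Aldh1a2 stood at 12.45, 12.79 and 12.85 on the high salt arrays, against 11.86, 12.83 and 11.41 on the low salt arrays. Those nearest to Gjb6 were Pgrmc1 (0.14), Ahcyl2 (0.15) and C1qtnf3 (0.16). Those nearest to Gjb2 were Fcgrt (the neonatal Fc receptor, 0.09), Ptpn13 (0.10) and Prxl2a (0.11). Fcgrt stood at 12.47, 12.67 and 12.52 on the high salt arrays, against 11.67, 12.56 and 11.58 on the low salt arrays.

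Against the mean profiles of 12 marker sets, Gjb2 lay nearest to meningeal fibroblasts and arachnoid (RMS difference 0.17), followed by oligodendrocytes (0.28) and astrocytes (0.35). Gjb6 and Gja1 lay nearest to astrocytes (0.31 and 0.30), with the meningeal set next (0.45 and 0.41). Of the 10 astrocyte markers 9 were higher in high salt, beside 60.0% higher over all genes, with a median difference of 0.90 beside 0.07, and of the 11 meningeal markers 10 were higher, with a median of 0.65. The water channel Aqp4 of astrocyte endfeet stood at 9.58, 9.23 and 9.66 on the high salt arrays, against 6.26, 10.47 and 5.02 on the low salt arrays, so that on low salt array 3 it was among the dimmest values of the table. Slc13a4, a sulphate transporter of the meninges, stood at 12.00, 12.84 and 12.27 on the high salt arrays, against 10.68, 12.58 and 10.09 on the low salt arrays. Aqp4 and Slc13a4 had the largest differences of their sets, at 2.24 and 1.25. Not every marker dipped on low salt arrays 1 and 3. The bright meningeal marker Dcn was highest there (13.06 and 13.11) and differed by -0.56, while Lum and Col1a1 differed by 0.09 and 0.06. None of these markers passed the threshold (limma, Benjamini-Hochberg adjusted p = 0.803 for Aqp4 and for Slc13a4).

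**Figure D3:**
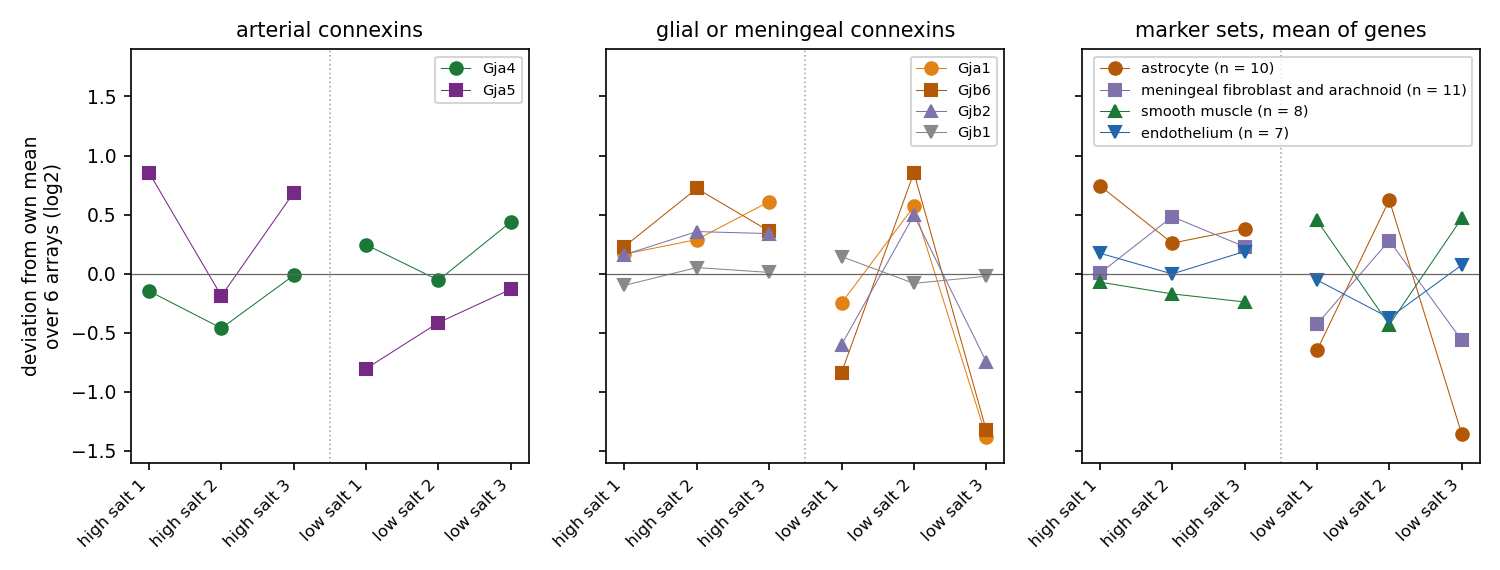
Deviation of each gene from its own mean over the 6 arrays, in log2 units (vertical axis), by array (horizontal axis, high salt left of low salt), for arterial connexins, glial or meningeal connexins, and the mean of 4 marker sets; lines only guide the eye, since replicates have no order. Gja1, Gjb6 and Gjb2 dip on low salt arrays 1 and 3, as the astrocyte set (-0.65 and -1.36) and the meningeal set (-0.43 and -0.56) do, while Gja4 is highest on these 2 arrays (0.24 and 0.44) and Gja5 is highest on high salt arrays 1 and 3.

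With the mean of the astrocyte markers as a covariate, a setting chosen after seeing the data, the differences were -0.09 ± 0.33 for Gja1, -0.06 ± 0.37 for Gjb6 and 0.02 ± 0.24 for Gjb2 (SE). With the mean of the meningeal markers in its place they were -0.03 ± 0.42, -0.17 ± 0.25 and -0.03 ± 0.20. The differences of all 3 genes thus came to less than 1 SE of 0 at a given level of either marker set. The same fits gave 0.88 ± 0.45 and 1.15 ± 0.41 for Gja5, against 0.90 ± 0.32 without a covariate. For Gja4 they gave -0.22 ± 0.21 and -0.15 ± 0.17, smaller than its -0.42 without a covariate. Both marker sets lay nearer to Gja1, Gjb6 and Gjb2 (RMS difference 0.17 to 0.45) than to Gja5 (0.70 and 0.61). Gja4, whose difference shrank, lay farther from the astrocyte and meningeal sets (0.996 and 0.651) than Gja5 did. How far the contrast of Gja1, Gjb6 and Gjb2 with Gja5 depended on the choice of covariates was not tested. Red blood cell markers, the set nearest to Gja5, were not used as a covariate. The covariates differ between diets themselves and leave few degrees of freedom, and the adjusted p was 1.00 for each of these genes in both fits (limma, Benjamini-Hochberg).

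**Figure D4:**
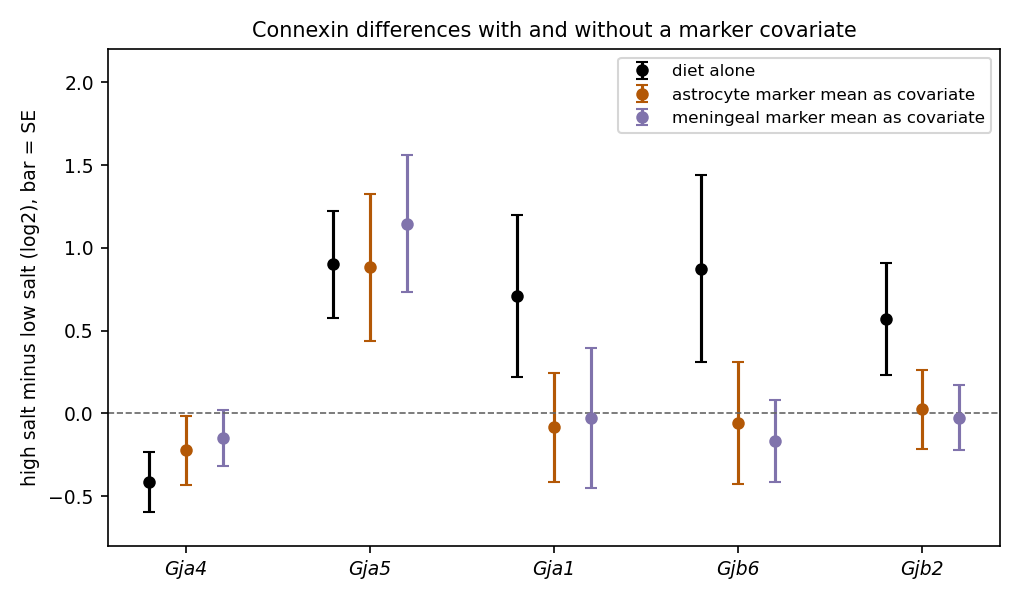
Difference of high salt from low salt in log2 units ± SE (vertical axis) for 5 connexins (horizontal axis) in the fit of diet alone (black), with the astrocyte marker mean as a covariate (brown) and with the meningeal marker mean (purple). Gja1, Gjb6 and Gjb2 lie near 0 with either covariate, and Gja5 lies at 0.88 and 1.15 with a wider SE than in the fit of diet alone. Both marker sets had profiles nearer to Gja1, Gjb6 and Gjb2 than to Gja5.

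Set side by side, the 2 arterial members had a median difference of 0.24, made of values of opposite sign (0.11 with median centring, 0.039 with quantile normalization), and the 4 other measured members, Gjb1 included, had a median of 0.64. These medians were not tested against each other. In the arterial pair, low salt array 2 did not stand with the high salt arrays for Gja5, where it was below each of them. For Gja4 it lay inside the high salt range. For Gja1 it lay inside the high salt range too, and for Gjb6 and Gjb2 it lay above it.

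Gjb1, which encodes Cx32, the connexin of myelinating cells, was dim and flat. It stood at 6.43, 6.58 and 6.54 on high salt arrays 1 to 3, against 6.67, 6.45 and 6.51 on low salt arrays 1 to 3, at the 23.7 percentile of probe set means. The difference was -0.03 ± 0.11 (SE), with a 95% interval from -0.29 to 0.23, and its sign turned in 3 alternatives. The files hold no detection call, and at this level Gjb1 RNA cannot be told apart from background. The myelin marker Mbp was bright, at 10.43, 11.35 and 11.19 on the high salt arrays, against 9.20, 10.80 and 9.30 on the low salt arrays, and Mog, another myelin gene, lay between 5.68 and 6.08.

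Other connexins were at low levels. Of 13 further connexin genes listed, 4 were measured and 9 were not analysed here, as were 3 pannexins. Gja3 (a lens connexin), Gja6, Gjb5 (a skin connexin) and Gjd2 (the neuronal Cx36) all lay below the median gene, with means from 5.62 to 7.15. Their differences ran from -0.13 (Gjd2) to 0.06 (Gjb5), 1 higher and 3 lower, and all diets overlapped.

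In a list of scaffold, adhesion and trafficking genes of cell junctions, not only of gap junctions, the adhesion molecule F11r differed most by p. Of 14 genes measured 9 were higher and 5 lower in high salt, beside 60.0% higher over all genes, with a median of 0.13 beside 0.07, and 0 passed the threshold. F11r, the junctional adhesion molecule JAM-A, stood at 10.54, 10.08 and 10.28 on the high salt arrays, against 9.38, 9.55 and 9.84 on the low salt arrays, with no overlap, as for 7.23% of probe sets in that direction. It differed by 0.71 ± 0.17 (SE; limma, Benjamini-Hochberg adjusted p = 0.803). Nedd4, a ubiquitin ligase of Cx43, differed by 0.56 ± 0.32, and the caveolin Cav2 by -0.25 ± 0.13. The scaffold Tjp1 (ZO-1), which binds the tail of Cx43, stood at 11.80, 12.10 and 12.49 on the high salt arrays, against 10.84, 12.51 and 11.68 on the low salt arrays, a difference of 0.45 ± 0.44.

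Of 9 kinases known to act on connexins 4 were higher and 5 lower, with a median of -0.00364, and 0 passed. Prkcd (protein kinase C delta) differed by 0.59 ± 0.22 (SE), with values of 10.40, 10.10 and 10.32 on the high salt arrays, against 9.22, 9.90 and 9.93 on the low salt arrays and no overlap, as for 7.23% of probe sets in that direction. Prkce (protein kinase C epsilon) had no overlap in the other direction, as for 3.93% of probe sets, with a difference of -0.07 ± 0.08. Csnk1d (casein kinase 1 delta) differed by 0.73 ± 0.38 and Prkaca, the catalytic subunit of protein kinase A, by -0.25 ± 0.15. The adjusted p was 0.841 for Prkce and 0.803 for the other kinases named (limma, Benjamini-Hochberg).

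Among the channels and enzymes behind the hyperpolarisation that connexins conduct, 6 were lower. Of 9 genes 3 were higher and 6 lower in high salt, beside 60.0% higher over all genes, with a median of -0.14 beside 0.07, and 0 passed. The list was mostly dim, with 6 of the 9 genes below the median gene. Of the genes lower in high salt only Kcnma1 lay above it. The potassium channel subunits Abcc9 and Kcnma1 differed by -0.61 ± 0.28 and -0.36 ± 0.17 (SE), and the endothelial small-conductance channel Kcnn3, dim at a mean of 6.91, by -0.22 ± 0.15. Kcnma1 stood at 10.58, 10.44 and 10.69 on the high salt arrays, against 11.03, 10.60 and 11.17 on the low salt arrays, and low salt array 2 lay inside the high salt range. The endothelial Kcnn4 differed by 0.10 ± 0.25. Beside this, the mean of 8 smooth muscle markers was 11.48, 11.38 and 11.31 on the high salt arrays, against 12.00, 11.12 and 12.02 on the low salt arrays, with 8 of 8 lower, and its part in these values and in those of Gja4 was not tested.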

How the data were processed

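The authors deposited 1 log2 value per probe set and array, made with RMA (background correction, scaling between arrays and summary of probes) from an Affymetrix rat array after 2-cycle amplification, per the submitters' processing notes and the labels' protocols. The base of the log is not stated and was taken as 2 from the use of RMA and the range of values (4.58 to 14.34). The table had 15923 rows, of which 57 control probe sets were left out. Gene symbols came from the platform annotation: 12783 probe sets had 1 symbol, 312 several and 2771 none, and probe sets with several symbols named no gene. RMA gives no detection call, and the number of arrays limits the precision. The deposited arrays did not share 1 distribution. Medians ran from 7.965 on low salt array 1 to 8.175 on high salt array 3. Upper quartiles ran from 9.218 on low salt array 1 to 9.708 on high salt array 1.

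High salt was compared with low salt, 3 arrays each, with limma (version 3.58.1, R version 4.3.3; lmFit, eBayes, no block) over 15866 probe sets, with Benjamini-Hochberg adjustment over all of them and a threshold of 0.05. With 3 against 3 an exact permutation test cannot go below 0.1 and was not used. In a simulation of this comparison over 15866 probe sets, 200 of which were altered, the fit found 42% of shifts by 1 log2 unit and 73.5% of shifts by 2 log2 units, and called 0 where nothing was altered. The simulation drew noise independently for each probe set, with the same SD in both diets. Shifts shared by many probe sets of an array, and a wider spread in low salt, were not simulated. These shares therefore do not give the power of the comparison on the real arrays.

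The members and gene lists were chosen with earlier results of these data known. Genes named are the members, other connexins, the genes of lowest p of each list and the 3 genes of nearest profile per member. From the marker sets some of the brightest markers and markers of lowest p are named, but not all of them. Slc13a4 was neither, and had the largest difference of its set. Dcn, Lum and Col1a1 were named after their values were seen, because they departed from the rest of their set. Prkce was named for its lack of overlap, and Aqp4, Cldn5, Vwf, Tjp1, Kcnn4, Mbp and Mog for their known roles after their values were seen. Sequences are from RefSeq (GRCr8). No 2 arrays held identical values (0 pairs). Alternatives were other scalings, a filter at the 40th percentile, other variance models, weights per array, a replicate block, each array left out, averaged probe sets, adjustment over 1 probe set per gene and, added later, marker covariates.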

Additional observations from a re-analysis of the deposited data

How the results depend on the processing

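The count of called probe sets at an adjusted p below 0.05 was 0 in all settings run, and the lowest adjusted p in any of them was 0.0501, without low salt replicate 2 (limma, Benjamini-Hochberg). The split at an unadjusted p below 0.05, 735 higher and 111 lower, was 384 and 433 after median centring and 365 and 403 after quantile normalization, and without low salt replicate 2 it was 2026 and 696. Leaving out 1 array at a time, the difference ran from -0.55 to -0.29 for Gja4, 0.70 to 1.22 for Gja5, 0.19 to 1.17 for Gja1, 0.43 to 1.52 for Gjb6, 0.34 to 0.96 for Gjb2 and -0.0738 to 0.0397 for Gjb1. For the dim probe sets it ran from 0.05 to 0.17 for Gja5, and from -0.17 to -0.10 and -0.28 to 0.16 for Gja1, and the last turned to 0.0508 with array weights. The dim Gja5 probe set was -0.00951 after median centring. With the astrocyte covariate the sign turned for Gja1 (-0.0851), Gjb6 (-0.0595), Gjb1 (0.0331) and the median of the glial or meningeal members (-0.0175). With the meningeal covariate it turned for Gja1 (-0.0296), Gjb6 (-0.167), Gjb2 (-0.0262) and that median (-0.0279). The median of the arterial members was 0.11 with median centring, 0.039 with quantile normalization and ran from 0.13 to 0.47 with 1 array left out, and that of the others from 0.27 to 1.06. The cause of these turns was not tested beyond the marker values given, and array weights did not fully converge.

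Over all probe sets, equal replicate numbers did not pair the arrays. Deviations from the diet means correlated by 0.0377, -0.268 and 0.0441 for pairs 1 to 3, and high salt arrays 1, 2 and 3 correlated best with low salt arrays 3, 1 and 2. With the replicate block 0 probe sets were called, and Gja5 and Gja4 differed by 0.90 ± 0.31 and -0.42 ± 0.12 (SE). Their unadjusted p was 0.0439 and 0.0247, and the Benjamini-Hochberg adjusted p was 0.893 for both (limma). The block changed the SE from 0.18 to 0.12 for Gja4, from 0.57 to 0.39 for Gjb6 and from 0.11 to 0.14 for Gjb1.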
